A study of Mus musculus with 12 samples.

Results

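Among the 28643 gene symbols measured in sorted round spermatids, 36 carried the names of cilia and flagella associated proteins (Cfap), radial spoke head proteins and their relatives (Rsph) or nexin-dynein regulatory complex subunits (Drc). They were taken by symbol, as every gene whose name begins with Cfap, Rsph or Drc followed by a digit, except Cfap99. They are called axonemal genes below. The spermatids came from testes of 8-week-old male mice, were isolated by flow sorting with cycloheximide present throughout, and were either Igf2bp3+/- (heterozygous, the control) or Igf2bp3-/- (homozygous for a Cas9-made frameshift in the exon of the first KH, or RNA-binding, domain). For each genotype, 3 replicates were sequenced as RNA-seq of the input extract and 3 as RNC-seq (ribosome nascent-chain complex sequencing), which covers mRNAs bound by 4 or more ribosomes, so that the data comprised 12 libraries. By the methods, Igf2bp3-/- males with poor fertility were picked for these experiments, so genotype cannot be told apart from that choice. The controls also lacked 1 intact copy of the gene, the frameshift was present in every cell of the animal, and fewer cells of a type cannot be told apart from less RNA per cell in such bulk samples.

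The axoneme is the motor core of the sperm tail, a ring of doublet microtubules around a central pair. Dynein arms slide the doublets against each other, and radial spokes carry signals between the central apparatus and the arms. The nexin-dynein regulatory complex links neighbouring doublets, and microtubule inner proteins line the inside of the doublet wall. Round spermatids begin to assemble this structure, and many of its mRNAs are made before the tail elongates. Loss of several of these genes in mice or men gives short, coiled or immotile sperm tails.

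All 36 axonemal genes matched the GENCODE M21 annotation of GRCm38 and all were protein-coding. The coding sequences, taking the longest for each gene, ran from 579 nt in Cfap20, on chromosome 8 from 95420249 to 95434869 on the minus strand, to 9513 nt in Cfap54, on chromosome 10 from 92775619 to 93081618 on the minus strand. Rsph3a and Rsph3b are near-identical copies on chromosome 17, at 7945614-7979824 on the plus strand and 6904413-6948682 on the minus strand. Their coding sequences aligned over 1548 nt with 13 substitutions and 54 gap positions (99.2% identity), and the longest identical run was 939 nt. Reads of one can thus be counted for the other, and the levels of both are uncertain. The window with the most substitutions, among windows of its length without gaps, is printed here with the 5 substituted bases in capitals. It covers coding positions 208 to 237 of Rsph3a and 262 to 291 of Rsph3b, and the gap positions lie outside it.
Rsph3a: gTccccctcgcgCTccgcccgTttcTccga
Rsph3b: gGccccctcgcgTCccgcccgCttcCccga

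The RefSeq table of GRCm38.p6 promoters, a short window around each start, held 27 of the 36 axonemal genes with 31 promoters. The X-box is the element bound by RFX factors, known for their part in ciliary gene expression. The letters of 1 arm of it, GTTGCC on either strand, were found in 10 of these 31 promoters (32.3%), and in 12.5% of all 32851 promoters in the table. The genes with the arm were Cfap20, Cfap44, Cfap46, Cfap58, Cfap74, Cfap100, Cfap161, Drc1 and Rsph3b. Here a full X-box means 1 fixed pattern of 14 letters, with both arms at a set spacing. Forms with other letters or another spacing were not searched for, so their absence was not shown. Neither a full X-box with both arms nor the cyclic AMP response element, TGACGTCA, was present in the 31 promoters, against 0.451% and 1.79% of all promoters. The 4 windows below show arms near the start, printed on the strand of the gene with the arm in capitals, where GGCAAC is the same element read on the other strand.
Cfap44, chr16:44394768-44394797, plus strand: ggacgttgctatGGCAACcgcagtaaacgg
Cfap46, chr7:139683807-139683836, minus strand: gccccgtctctaGGCAACcgctactggtcc
Cfap58, chr19:47937641-47937670, plus strand: gggggcgtggcgGTTGCCaggcgaccgaag
Drc1, chr5:30281370-30281399, plus strand: ctgctttcccttGGCAACggcttgttccta

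Values are given as FPKM, a read density normalised for transcript length and library size, so that levels can be compared between genes. No read counts were available. Relative depth was estimated roughly, from the most common value of FPKM times transcript length over single-transcript genes. By this estimate it was 1 in Igf2bp3-/- RNA-seq replicate 1 and 0.379 to 0.574 in the other libraries. Igf2bp3 itself was at 33.4 to 38.6 FPKM in Igf2bp3+/- and 31.4 to 32.5 in Igf2bp3-/- RNA-seq, and a frameshift that leaves the transcript in place gives no check of the labels. Igf2bp3-/- RNC-seq replicate 2 had the lowest mean correlation with the other RNC-seq libraries (r = 0.962 across 12265 genes, against 0.970 to 0.977), and the genotype differences that turn on it are also given without it. The summed FPKM of 7 Leydig cell markers was 15.2 to 22.5 in Igf2bp3+/- and 48.4 to 54.8 in Igf2bp3-/- RNA-seq. That of 6 round spermatid markers was 952 to 1085 and 1183 to 1377, so that the markers of the labelled cell were present in all libraries.

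Axonemal mRNAs were abundant in round spermatids. They made up 0.816% to 0.912% of all FPKM in the RNA-seq libraries and 0.550% to 0.698% in the RNC-seq libraries. Of the 36 genes, 35 passed the filter of a mean above 0.1 FPKM, and the exception was Rsph4a. This spoke head gene, known from the cilia of airway and ependyma, was listed at 0 in 4 libraries and reached at most 0.0930 FPKM in the others. Its paralog Rsph6a, known as the form used in sperm, stood at 174, 170.1 and 199.9 FPKM in the 3 Igf2bp3+/- RNA-seq libraries. No axonemal gene other than Rsph4a was at 0 in any library.

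The radial spoke genes spanned the widest range. Rsph1, a spoke head protein, was the most abundant axonemal mRNA, at 741, 723 and 646 FPKM in Igf2bp3+/- RNA-seq and 729, 781 and 858 in Igf2bp3-/- RNA-seq. Its RNC-seq values were 731, 709 and 793 in Igf2bp3+/- and 991, 792 and 762 in Igf2bp3-/-, and the genotypes overlapped in both assays. Apart from Rsph4a, the other spoke genes ran from a mean of 20.5 ± 1.5 FPKM (SD, n = 3) for Rsph10b to 181 ± 16 for Rsph6a in Igf2bp3+/- RNA-seq. The near-identical Rsph3a and Rsph3b, the spoke stalk genes, were at 88.3 ± 1.6 and 60.2 ± 1.3 FPKM.

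Cfap206, which anchors a spoke at its base, was second, at 377, 380.2 and 373 FPKM in Igf2bp3+/- RNA-seq. In Igf2bp3-/- RNA-seq it was at 419.9, 457 and 498 FPKM, above every control library. Its RNC-seq values, 325, 346 and 351 against 420.0, 429 and 310.2, overlapped. The other genes of the inner dynein tether (Cfap43, Cfap44), its modifiers (Cfap57, Cfap73, Cfap100) and the spoke base (Cfap61) had means from 6.16 ± 0.54 FPKM for Cfap73 to 111 ± 11 for Cfap61.

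Cfap36, whose place in the axoneme is less certain, was the third, at 351, 304 and 269.5 FPKM in Igf2bp3+/- RNA-seq and 338, 346 and 413 in Igf2bp3-/- RNA-seq. The 3 Drc genes, subunits of the nexin link, had means of 59.8 ± 5.5, 69.0 ± 2.0 and 92.5 ± 1.2 FPKM for Drc7, Drc3 and Drc1. The libraries of these genes did not overlap. Among 7 microtubule inner protein genes, Cfap45 was highest at 223 ± 11 FPKM and Cfap77 lowest at 4.57 ± 0.50. The 7 central apparatus genes fell into 3 levels. Cfap65, Cfap69 and Cfap70 lay between 95.6 and 125 FPKM, Cfap74 and Cfap221 at 26.01 and 24.6, and Cfap54 and Cfap46 at 7.70 and 6.87. Within the first level, the libraries of Cfap69 and Cfap70 overlapped, as did those of Cfap74 and Cfap221 in the second and of Cfap54 and Cfap46 in the third.

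**Figure D1:**
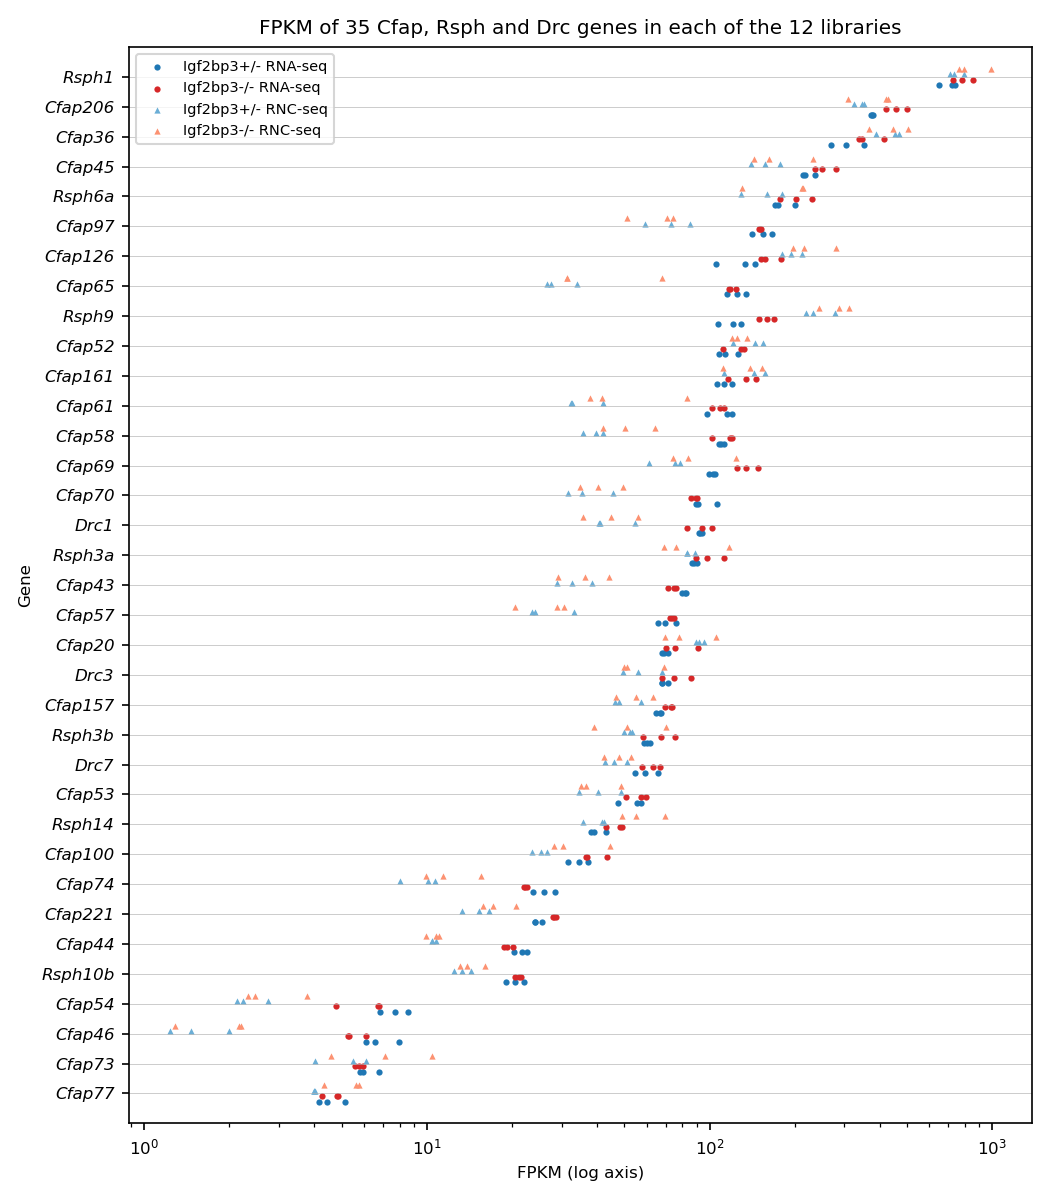
FPKM on a log axis for 35 axonemal genes in all 12 libraries, ordered by mean Igf2bp3+/- RNA-seq level; circles are RNA-seq, triangles RNC-seq, blue Igf2bp3+/- and red Igf2bp3-/-. The triangles of Cfap65, Cfap61, Cfap58, Cfap54 and Cfap46 lie left of their circles, and those of Rsph9 lie right of them. For Cfap65, Cfap61, Cfap58 and Cfap54, the triangle of Igf2bp3-/- replicate 2 lies closest to the circles.

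RNC-seq was compared with RNA-seq within each genotype to describe how strongly each mRNA was represented on polysomes. The difference of log2(FPKM + 0.1) is called polysome loading, and since FPKM is relative to each library, a loading below 0 means a smaller share of the polysomal than of the input mRNA. In Igf2bp3+/- spermatids, 19 of 35 axonemal genes were lower in RNC-seq and 4 were higher (limma with Benjamini-Hochberg adjustment over 18414 genes, limit 0.05). Over all genes tested, 25.2% were called lower and 18.2% higher. The same counts at an unadjusted p under 0.05 were 20 and 4, beside 29.5% and 22.1% of all genes. Libraries of the assays did not overlap for 22 genes on the lower and 4 on the higher side, beside 32.9% and 22.7% of all genes. The median loading was -0.40 for the axonemal genes and -0.10 for all genes, and 7 of 35 were above 0, beside 45% of all genes.

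Central apparatus genes had the lowest loading, with 7 of 7 called lower and a median of -1.43. Cfap65, a central apparatus gene whose loss gives malformed sperm tails, was at 115, 134 and 125 FPKM in Igf2bp3+/- RNA-seq and 27.4, 26.5 and 34.1 in RNC-seq. The assays did not overlap, and its loading was -2.09 ± 0.14 (SE, adjusted p = 5.87e-05 by limma). An antisense or opposite-strand gene shares 3.67% of its exonic bases.

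Cfap46 and Cfap54, large proteins of the C1d projection of the central pair, were next. Cfap46 was at 6.55, 6.09 and 7.97 FPKM in RNA-seq and 1.23, 1.46 and 1.99 in RNC-seq, a loading of -2.09 ± 0.21 (adjusted p = 0.000226 by limma). Cfap54 was at 6.80, 7.74 and 8.57 FPKM in RNA-seq and 2.74, 2.13 and 2.24 in RNC-seq, a loading of -1.66 ± 0.17 (adjusted p = 0.000236 by limma). For both genes every RNC-seq library lay below every RNA-seq library. Among the genes of the dynein tether, modifiers and spoke base, 5 of 7 were lower, with a median of -1.02, and none was higher. In the nexin link 2 of 3 were lower, Drc1 at -1.04 ± 0.14 and Drc7 at -0.36 ± 0.13. The call of Drc7 was unstable. It was lost without the filter on low FPKM, after centring on the median and with array weights. It was also lost without RNA-seq replicate 1, 2 or 3 or RNC-seq replicate 1 or 2.

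Radial spoke and microtubule inner protein genes were different in their counts. Of 7 spoke genes, 1 was lower (Rsph10b, -0.61 ± 0.13) and 1 was higher, and of 7 inner protein genes 1 was lower (Cfap45, -0.50 ± 0.12) and 2 were higher. Rsph9, a spoke head protein, had the highest loading of all axonemal genes. It was at 121, 129 and 107 FPKM in Igf2bp3+/- RNA-seq and 277, 219 and 232 in RNC-seq, with every RNC-seq library above every RNA-seq library, and its loading was 1.02 ± 0.13 (adjusted p = 0.000602 by limma). Cfap126 (Flattop), at 144, 133 and 105 FPKM in RNA-seq and 212, 180.0 and 194 in RNC-seq, had a loading of 0.62 ± 0.14 (adjusted p = 0.00836 by limma), also without overlap. Cfap20, of the inner junction of the doublet, was the other inner protein gene called higher, at 0.41 ± 0.10.

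Cfap36 was the fourth gene called higher, with RNC-seq values of 469, 388 and 453 FPKM, all above its RNA-seq values, and a loading of 0.51 ± 0.14 (adjusted p = 0.0171 by limma). Its call is the least stable of the 4. It was lost under quantile normalization (0.20, adjusted p = 0.178), without the filter on low FPKM (adjusted p = 0.0504) and without any 1 of 4 libraries, RNA-seq replicates 2 and 3 or RNC-seq replicates 1 and 3 (adjusted p = 0.0535 to 0.0589, by limma in each case). The other 3 genes of less certain place, Cfap58, Cfap97 and Cfap157, were called lower, at -1.49 ± 0.11, -1.10 ± 0.15 and -0.40 ± 0.12. The call of Cfap157 was lost after centring on the median and without RNA-seq replicate 1, 2 or 3 or RNC-seq replicate 1. As ratios of mean RNC-seq to mean RNA-seq FPKM, the axonemal genes ran from 0.227 for Cfap46 and 0.236 for Cfap65 to 2.03 for Rsph9.

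The Igf2bp3-/- libraries gave 14 axonemal genes with lower and 1 with higher representation in RNC-seq, with 11% of all genes called lower and 10.2% called higher. The 14 were among the 19 of Igf2bp3+/- (73.7% of the 19 and 100% of the 14), and the gene called higher was again Rsph9. With the replicate number as a block the call of Rsph10b was lost, which left 13 called lower. Cfap36, Cfap126 and Cfap20 were called higher, and Cfap45, Cfap69, Cfap100, Cfap157 and Drc7 lower, in Igf2bp3+/- and not in Igf2bp3-/-, and no difference between genotypes for these 8 genes passed the test given below. Libraries of the assays did not overlap for 19 genes on the lower and 2 on the higher side, beside 21.5% and 19.2% of all genes. The median loading in Igf2bp3-/- was -0.44 for the axonemal genes and -0.04 for all genes, and 10 of 35 were above 0, beside 47.8% of all genes. At an unadjusted p under 0.05, 20 were lower and 2 higher, beside 18.6% and 17.5%.

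In Igf2bp3-/- RNA-seq, Rsph9 was at 149.8, 160.1 and 169 FPKM, and in RNC-seq at 311, 243 and 288, a loading of 0.81 ± 0.16 (adjusted p = 0.00971 by limma). The groups did not overlap, but the call was lost without RNA-seq replicate 1 (adjusted p = 0.0616) or 2 (adjusted p = 0.0574, both by limma). The count of genes called lower fell to 9 without RNA-seq replicate 1 or 2 of this genotype. Cfap126, at 153, 157 and 179 FPKM in RNA-seq and 279.7, 197 and 216 in RNC-seq, missed the limit with 0.49 ± 0.18 (adjusted p = 0.0796 by limma). Its RNC-seq libraries were nonetheless all above its RNA-seq libraries, and it passed the limit under 4 of 15 alternatives, including without RNC-seq replicate 2 (0.60, adjusted p = 0.0210 by limma).

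Cfap65 was at 118, 117 and 124 FPKM in Igf2bp3-/- RNA-seq and 31.2, 68.1 and 31.3 in RNC-seq. The RNC-seq value of replicate 2 was far from the other two, and the loading of -1.56 ± 0.28 (adjusted p = 0.00688 by limma) became -1.93 without that library. Cfap46 was at 5.32, 6.09 and 5.27 FPKM in RNA-seq and 2.16, 2.19 and 1.28 in RNC-seq, a loading of -1.55 ± 0.24 (adjusted p = 0.00443 by limma). Cfap54 was at 6.79, 6.71 and 4.78 FPKM in RNA-seq and 2.46, 3.77 and 2.32 in RNC-seq, a loading of -1.08 ± 0.24 (adjusted p = 0.0151 by limma), which did not pass the limit without RNA-seq replicate 1 or 2. Without the filter on low FPKM, the Igf2bp3-/- loadings of Cfap65 and Cfap54 missed the limit (adjusted p = 0.0580 and 0.0635 by limma). The RNC-seq libraries of all 3 genes lay below their RNA-seq libraries in each genotype.

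Polysome loading of the axonemal genes went down with coding length. Across the 35 genes in Igf2bp3+/-, Pearson's r between loading and log2 of the longest coding sequence was -0.87 (Spearman's rho -0.87), with a slope of -0.67 per doubling of length. In Igf2bp3-/- r was -0.84 (rho -0.84) and the slope -0.51. The relation was not particular to these genes, since r across 12816 protein-coding genes was -0.55 in Igf2bp3+/- and -0.53 in Igf2bp3-/-. These are descriptions over genes that share the same libraries and a length term in FPKM, and carry no p.

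The 9 axonemal genes with a coding sequence of 3000 nt or longer (Cfap43, Cfap44, Cfap46, Cfap54, Cfap57, Cfap61, Cfap65, Cfap70 and Cfap74) all had a loading below 0 in both genotypes. Their medians were -1.43 in Igf2bp3+/- and -1.08 in Igf2bp3-/-, beside -1.12 and -0.68 for all protein-coding genes of that length. The 26 shorter genes had medians of -0.24 in both genotypes, beside -0.14 and -0.08 for all shorter protein-coding genes. Among genes under 3000 nt, Cfap58 (2619 nt) and Cfap97 (1641 nt) lay lowest in Igf2bp3+/-.

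**Figure D2:**
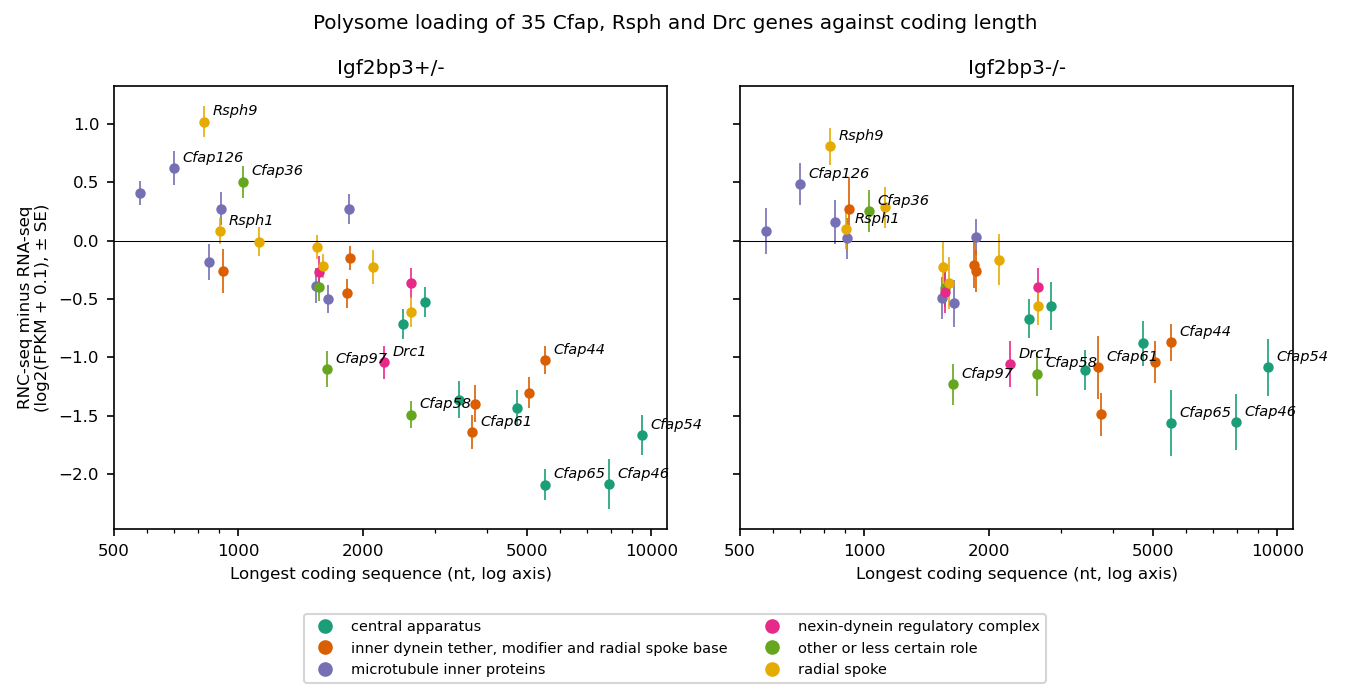
Polysome loading (RNC-seq minus RNA-seq on the log2(FPKM + 0.1) scale, ± SE, n = 3 per assay) of 35 axonemal genes against longest coding sequence on a log axis, in Igf2bp3+/- (left) and Igf2bp3-/- (right), coloured by role. Loading falls from Rsph9 at 1.02 to Cfap65 and Cfap46 at -2.09 in Igf2bp3+/-, and from 0.81 to -1.56 and -1.55 in Igf2bp3-/-.

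The first genotype question was whether the input level of the axonemal mRNAs differed. None of the 35 genes passed the limit in RNA-seq in either direction (limma, adjusted over 20352 genes, of which 0.197% were called higher and 0.0590% lower in Igf2bp3-/-). At an unadjusted p under 0.05, 6 axonemal genes were higher and 0 lower, beside 10.4% and 5.32% of all genes. Changes ran from -0.35 for Cfap54 to 0.42 for Rsph9, and the 95% interval lay within a 2-fold change in either direction for all 35 genes. The median was 0.10 for the axonemal genes and 0.05 for all genes, and the median of the axonemal genes went to -0.02 under quantile normalization.

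Cfap69, a central apparatus gene, had the smallest p. Its FPKM was 103, 105 and 99.7 in Igf2bp3+/- and 125, 135 and 148 in Igf2bp3-/- RNA-seq, without overlap, a difference of 0.40 ± 0.09 (adjusted p = 0.152 by limma). Rsph9, with the values given above, differed by 0.42 ± 0.10 (adjusted p = 0.157 by limma), also without overlap. Cfap206 differed by 0.28 ± 0.09 (adjusted p = 0.216 by limma) and Cfap126 by 0.36 ± 0.13 (adjusted p = 0.248 by limma), and in each the Igf2bp3-/- libraries were all higher.

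Rsph14, a spoke gene, was at 38.9, 43.2 and 38.0 FPKM in Igf2bp3+/- and 48.3, 49.2 and 43.2 in Igf2bp3-/- RNA-seq. The lowest Igf2bp3-/- library stood just under the highest control, and the difference was 0.23 ± 0.09 (adjusted p = 0.304 by limma). Cfap65 was not separated in RNA-seq, with a difference of -0.06 ± 0.09 (adjusted p = 0.789 by limma).

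Groups did not overlap for 7 genes with higher values in Igf2bp3-/- (Cfap69, Rsph9, Cfap206, Cfap126, Cfap221, Cfap45 and Cfap157) and 4 with lower values (Cfap74, Cfap54, Cfap43 and Cfap44). The shares, 20% and 11.4%, stood beside 14.1% and 8.68% of all genes. Those outside the fixed rule for named genes were listed after their values were seen. All 4 genes on the lower side have coding sequences of 3000 nt or longer. The long axonemal genes had a median of -0.14, with 1 of 9 above 0, and the shorter ones 0.16, with 24 of 26 above 0. All protein-coding genes had medians of -0.13 and 0.08 in the same length classes. By role, 7 of 7 spoke genes and 7 of 7 inner protein genes were above 0 (medians 0.17 and 0.17), and 2 of 7 central apparatus genes were (median -0.10). Over all genes 56.2% were above 0.

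On polysomes (RNC-seq) no axonemal gene passed the limit either, beside 0.0787% of 19051 genes called higher and 0.0367% called lower. One gene, Rsph14, was higher at an unadjusted p under 0.05 and none was lower, beside 5.36% and 1.12% of all genes. Rsph14 was at 41.6, 35.7 and 42.3 FPKM in Igf2bp3+/- and 48.9, 69.3 and 54.8 in Igf2bp3-/- RNC-seq, without overlap, a difference of 0.52 ± 0.21 (adjusted p = 0.747 by limma). Without Igf2bp3-/- replicate 2, its highest library, the difference was 0.38 ± 0.20 (adjusted p = 0.892 by limma). The unadjusted p was no longer under 0.05 without that library or without any 1 of the 3 Igf2bp3+/- libraries. Cfap100, a modifier of inner dynein arms, was at 25.3, 23.6 and 26.5 against 44.6, 28.2 and 30.3 FPKM, a difference of 0.42 ± 0.22 (adjusted p = 0.796 by limma). Replicate 1 was the high Igf2bp3-/- library here, and without it the difference was 0.22. The genes without overlap were Rsph14, Cfap100 and Cfap77, all higher in Igf2bp3-/- (8.57%, beside 9.44% of all genes), and none was lower, beside 1.85%.

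Cfap58, Cfap61 and Cfap65 followed by p in RNC-seq. Cfap58, a gene linked to malformed sperm tails, was at 35.7, 39.8 and 42.0 FPKM in Igf2bp3+/- and 50.4, 64.1 and 41.9 in Igf2bp3-/- RNC-seq. Cfap61, of the calmodulin- and spoke-associated complex, was at 32.3, 32.7 and 42.1 against 37.8, 83.0 and 41.6 FPKM. In both genes, and in Cfap65, replicate 2 was the highest Igf2bp3-/- library. The other Igf2bp3-/- libraries lay within the control range for Cfap61 and Cfap65, whereas for Cfap58 replicate 1 also lay above it. The differences were 0.39 ± 0.21 for Cfap58, 0.52 ± 0.29 for Cfap61 and 0.47 ± 0.29 for Cfap65 (adjusted p = 0.805, 0.805 and 0.816 by limma). With 1 library left out in turn, they reached at most 0.54, 0.73 and 0.66. Without Igf2bp3-/- RNC-seq replicate 2 the differences were 0.23, 0.16 and 0.10.

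The median RNC-seq difference was 0.16 for the axonemal genes and 0.13 for all genes, and it was 0.10 and 0.14 without that library. All 7 central apparatus genes were above 0 in RNC-seq (median 0.24, and 0.12 without replicate 2 of Igf2bp3-/-), and over all genes 65.3% were above 0. The 95% interval lay within a 2-fold change for 32 of 35 genes, and the exceptions were Cfap61, Cfap65 and Cfap73. For these 3 genes a difference of more than 2-fold upward was not excluded by the interval, whose highest bound was 1.14.

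Translational efficiency (TE), the ratio of RNC-seq to RNA-seq, was compared between genotypes by an interaction term in a fit to the 12 libraries, which shares its libraries with both comparisons above. No axonemal gene passed the limit, beside 0.00543% of 18414 genes called higher and 0% called lower. Only Cfap74 had an unadjusted p under 0.05, beside 5.54% of all genes on the higher side, and none of the 35 met p under 0.05 together with a 1.5-fold change. Differences ran from -0.33 for Cfap20 to 0.58 for Cfap54. The median was -0.01 for the axonemal genes and 0.06 for all genes, and 17 of 35 genes were above 0, beside 55.6% of all genes.

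Cfap74, of the C1d projection, was at 23.8, 25.9 and 28.4 FPKM in Igf2bp3+/- and 22.3, 22.6 and 22.0 in Igf2bp3-/- RNA-seq. In RNC-seq it was at 8.01, 10.7 and 10.1 against 11.4, 15.6 and 9.91. The input was lower in every Igf2bp3-/- library while the polysomal values overlapped, and the TE difference was 0.56 ± 0.25 (adjusted p = 0.692 by limma). Its unadjusted p stayed under 0.05 with 5 of the 12 libraries left out in turn, and not without Igf2bp3-/- RNC-seq replicate 2. An opposite-strand gene shares 4.55% of its exonic bases. The other genes with a small p were Cfap54 (0.58 ± 0.31), Cfap61 (0.56 ± 0.33), Cfap46 (0.53 ± 0.33) and Cfap58 (0.35 ± 0.22), with adjusted p from 0.716 to 0.731 by limma. In RNA-seq, Cfap58 was at 109, 108 and 112 FPKM in Igf2bp3+/- and 118, 102 and 119.8 in Igf2bp3-/-. Cfap61 was at 98.2, 115 and 119.7 FPKM in Igf2bp3+/- and 109, 112 and 102 in Igf2bp3-/- RNA-seq, and the genotypes overlapped in both genes.

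For Cfap65 the ratio of mean RNC-seq to mean RNA-seq was 0.236 in Igf2bp3+/- and 0.364 in Igf2bp3-/-. Its TE difference was 0.53 ± 0.34 (adjusted p = 0.737 by limma), with a 95% interval from -0.20 to 1.26. The study named Cfap65 among IGF2BP3 targets with raised translation in Igf2bp3-/- round spermatids. The target status came from a separate binding assay (eCLIP). The raised translation came from these same libraries, so the direction here is not independent evidence. Without Igf2bp3-/- RNC-seq replicate 2, the TE difference was 0.15 for Cfap65, 0.20 for Cfap61, 0.37 for Cfap74, 0.37 for Cfap54, 0.41 for Cfap46 and 0.19 for Cfap58. Leaving out each of the 12 libraries in turn also moved these differences upward. The highest were 0.72, 0.77, 0.70, 0.70, 0.77 and 0.50 in the same order.

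By role, TE differences above 0 were seen in 6 of 7 central apparatus genes (median 0.53), 5 of 7 genes of the tether, modifiers and spoke base (0.25), 4 of 7 spoke genes (0.02), 1 of 7 inner protein genes (-0.14) and 0 of 3 Drc genes (-0.03). Without replicate 2 of Igf2bp3-/- RNC-seq, the medians were 0.15, 0.12, -0.06, -0.03 and -0.08 in the same order. Roles and lengths were tied together, since 5 of the 9 long genes belong to the central apparatus. Long axonemal genes had a median TE difference of 0.53 (8 of 9 above 0) and short ones -0.04 (9 of 26), beside 0.40 and 0.05 for all protein-coding genes of those lengths. Without Igf2bp3-/- RNC-seq replicate 2, the medians were 0.15 (8 of 9) and -0.06 (7 of 26), beside 0.23 and 0.04. With any other single library left out, the median of the long genes ran from 0.39 to 0.70. The interval of the TE difference lay within a 2-fold change for 29 of 35 genes, and reached beyond it for Cfap46, Cfap54, Cfap61, Cfap65, Cfap73 and Cfap74.

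**Figure D3:**
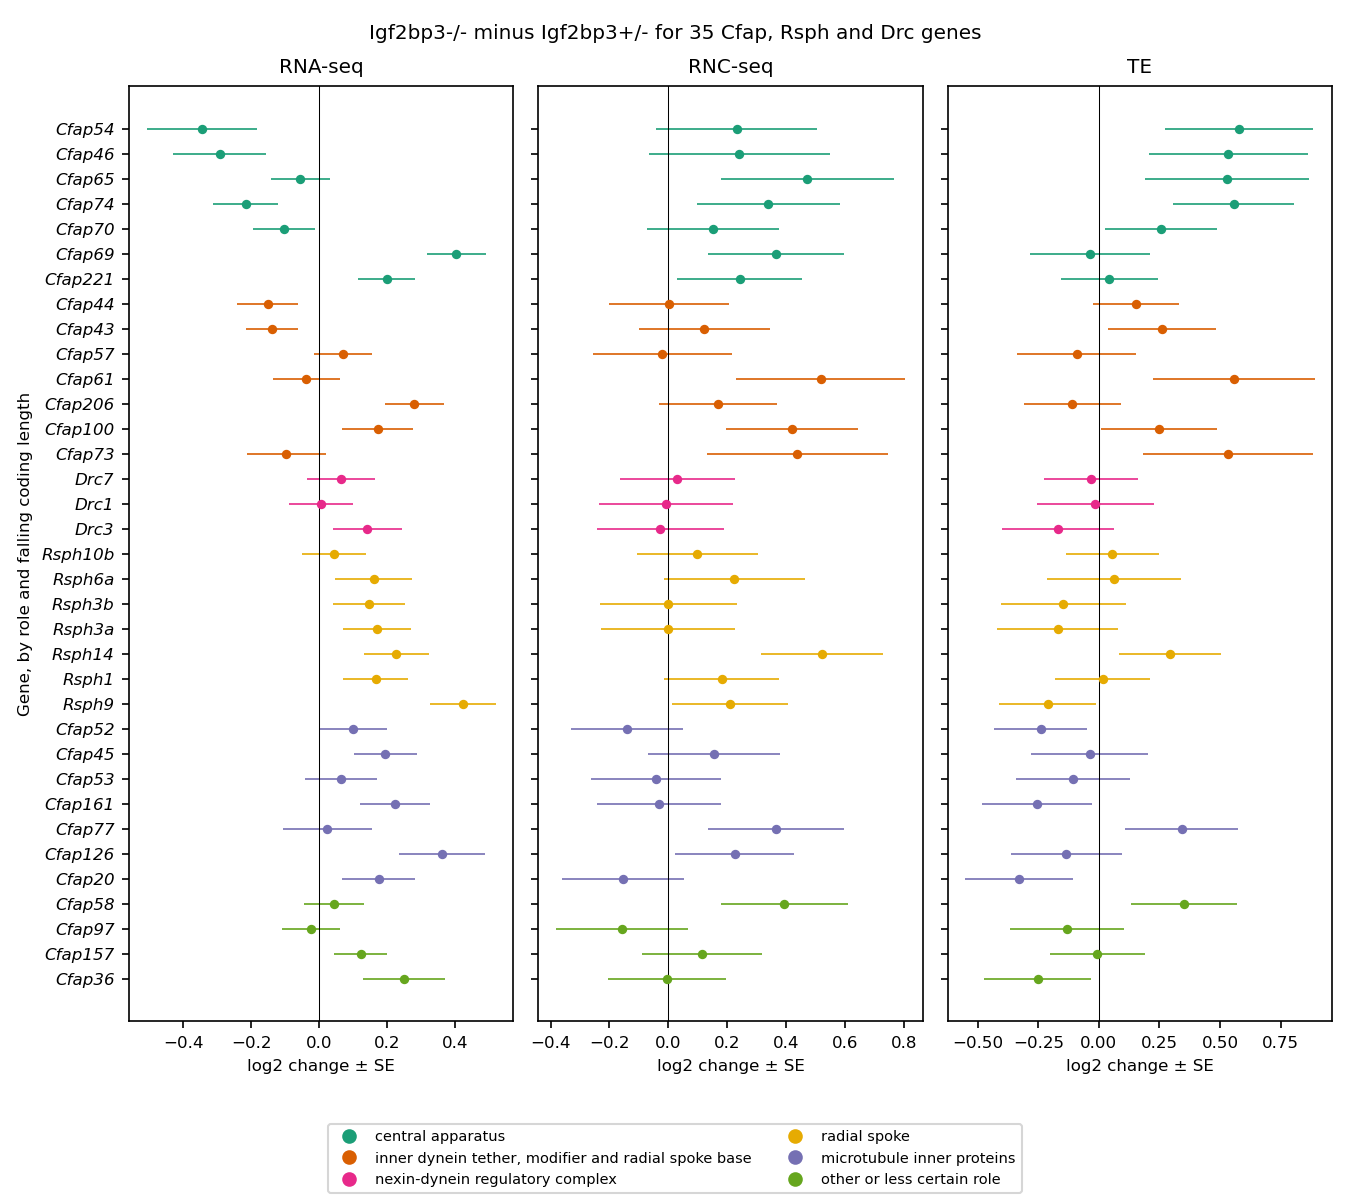
Log2 change of Igf2bp3-/- against Igf2bp3+/- (± SE) for 35 axonemal genes in RNA-seq, RNC-seq and TE, grouped and coloured by role and ordered by coding length within each role. The long central apparatus genes lie left of 0 in RNA-seq and right of it in RNC-seq and TE, and no point passed the adjusted limit.

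The slope of loading against coding length, taken for each RNC-seq library against the mean RNA-seq of its genotype, was -0.72, -0.66 and -0.64 per doubling in the Igf2bp3+/- libraries. It was -0.64, -0.32 and -0.57 in the Igf2bp3-/- libraries, with replicate 2 apart from the other five. The median loading of the 9 long genes was -0.81 in that library and between -1.59 and -1.26 in the others. The genes highest there relative to both other Igf2bp3-/- libraries included Cfap69, at 74.6, 124 and 84.0 FPKM against 75.4, 61.3 and 78.5 in Igf2bp3+/-.

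**Figure D4:**
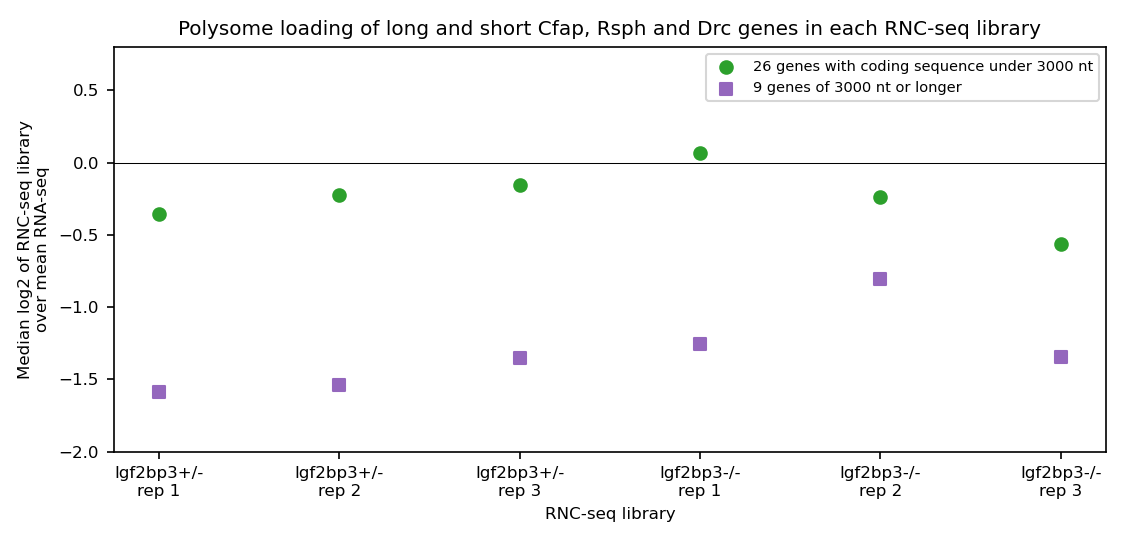
Median log2 ratio of each RNC-seq library over the mean RNA-seq of its genotype, for 9 long (squares, 3000 nt or longer) and 26 short (circles) axonemal genes. Squares lie between -1.59 and -1.26 except in Igf2bp3-/- replicate 2, at -0.81, where the gap between long and short genes is smallest.

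Other genes of the same structures, which do not carry the Cfap, Rsph or Drc names, were read from the same fits. Of 34 tested partners of the spokes, nexin link, central apparatus and doublet wall, 0 passed the limit in either direction in RNA-seq, RNC-seq or TE. In RNA-seq 28 of 34 were above 0, beside 56.2% of all genes, with a median of 0.14, including 11 of 11 inner protein partners (median 0.28) and 5 of 5 spoke partners (0.28). In polysome loading, 16 were lower and 5 higher in Igf2bp3+/-, beside 25.2% and 18.2% of all genes, and 12 were lower and 0 higher in Igf2bp3-/-, beside 11% and 10.2%. Hydin and Spag17, large central apparatus proteins, were lowest in Igf2bp3+/- at -1.89 ± 0.16 and -1.56 ± 0.13 (adjusted p = 9.61e-05 and 0.000105 by limma), and Efcab2, of the nexin link, was highest at 0.98 ± 0.18 (adjusted p = 0.00280 by limma).

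Some markers of other cells moved with genotype. Of 6 Leydig markers tested, 4 were higher in Igf2bp3-/- RNA-seq and 1 in RNC-seq, and their sums in RNC-seq were 6.77 to 14.3 and 51.4 to 102 FPKM. Most of the Leydig sum was Insl3, at 15.7, 17.9 and 10.9 FPKM in Igf2bp3+/- and 43.8, 38.0 and 36.1 in Igf2bp3-/- RNA-seq. All 6 tested were above 0 in both assays. The sums of 5 macrophage and blood markers were 3.94 to 4.53 and 8.00 to 8.40 FPKM in RNA-seq, and those of 6 Sertoli markers 3.49 to 4.49 and 7.26 to 7.88. Hba-a1 was the largest part of the macrophage and blood sum, and of that list 5 of 5 were above 0 and 1 was called higher. Most of the Sertoli sum was Clu, at 3.63, 3.01 and 2.74 FPKM in Igf2bp3+/- and 6.63, 6.79 and 6.66 in Igf2bp3-/- RNA-seq. Of 5 Sertoli markers tested in RNA-seq, 3 were above 0 and 1 was called higher, so the list did not move as a whole. The 6 spermatocyte markers overlapped between genotypes in RNA-seq (81.1 to 104 and 95.3 to 121), as did the 6 elongating spermatid markers (8421 to 10867 and 9444 to 9561). Round spermatid sums did not overlap, as given above, with 6 of 6 markers above 0 and none past the limit. Of 6 markers of multiciliated epithelium 3 were in the table, and their sum was 67.7 to 84.2 FPKM in Igf2bp3+/- and 59.1 to 86.8 in Igf2bp3-/- RNA-seq, nearly all of it Foxj1, while Gmnc was at or near 0 and Ccno at 2.63 to 3.23. In RNC-seq the sums did not overlap, at 41.4 to 60.8 FPKM in Igf2bp3+/- and 73.2 to 152 in Igf2bp3-/-. Foxj1, a regulator of motile cilia genes that spermatids also express, was at 39.0, 57.8 and 45.0 FPKM in Igf2bp3+/- and 77.3, 149 and 71.0 in Igf2bp3-/- RNC-seq, highest in replicate 2 of Igf2bp3-/-. Neither of the 2 markers of this list that were tested passed the limit in RNC-seq or TE. The part of these other cells and stages in the axonemal values was not tested.

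Reads of some axonemal genes can fall on neighbours, since strand use in quantification is not stated. Besides the Rsph3 pair, exons were shared with a gene on the same strand in Rsph10b (13.2%) and Cfap43 (2.32%). Exons lay opposite those of another gene in Cfap157 (10.6%), Rsph3a (9.89%), Cfap73 (8.47%), Cfap52 (8.36%), Cfap74, Cfap65, Rsph3b (2.89%) and Cfap97 (2.56%).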

How the data were processed

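The deposited data are FPKM values, computed by the authors for each gene symbol and library, whose columns named WT are the Igf2bp3+/- libraries by the labels. Per the labels and methods, Trim Galore 0.6.6 trimmed the reads, HISAT2 placed them on GRCm38 and StringTie 2.1.7 gave the FPKM. The labels and methods differ on library kit and instrument, and counts were not used here. Of 28668 symbols, 25 turned into dates (0.0995% of FPKM) were left out, and 27780 matched GENCODE M21.

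Models were fitted in limma 3.58.1 to log2(FPKM + 0.1) with a mean-variance trend, in R 4.3.3, among genes with a mean above 0.1 FPKM (in both assays for TE and loading), two-sided, with Benjamini-Hochberg adjustment over all genes. For weakly expressed genes the pseudocount shrinks the fold change. There were 5 comparisons: genotype within RNA-seq, within RNC-seq and in TE (the interaction), and RNC-seq against RNA-seq within each genotype. Near-identical copies (95% identity or more, covering 50% or more of a transcript) were found with BLAST 2.17.0. By the methods, the extract of each mouse was divided between input and polysomes, so RNA-seq and RNC-seq share animals. The sources do not say that a shared replicate number marks a shared extract, and the fits of loading and TE treat the libraries as separate. The p-values measure only the spread between these samples.

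The genes and lists were chosen with earlier results of these data known. Values in every library are given for the 5 smallest p in each genotype comparison, the 3 highest and 3 lowest loadings and the 3 highest RNA-seq levels in Igf2bp3+/-, and Cfap65. Alternatives were other pseudocounts (1, 0.01), filters, scalings, weights, a replicate block, a joint fit, another call rule and leaving out each library.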

Additional observations from a re-analysis of the deposited data

How the results depend on the processing

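In RNA-seq, RNC-seq and TE, no alternative run called any axonemal gene. This includes an unadjusted p under 0.05 with a 1.5-fold change, a rule applied only with all libraries kept. With a library left out, more genes could reach an unadjusted p under 0.05 by limma. In TE these were 5 higher and 0 lower without Igf2bp3-/- RNC-seq replicate 3, 2 and 2 without replicate 1, and 0 and 0 without replicate 2. The signs of their medians were less settled. Under quantile normalization the RNA-seq median was -0.016 (-0.018 relative to all genes), the TE median relative to all genes 5.23e-05, and the Igf2bp3+/- loading relative to all genes -0.50. With 1 library left out, the RNC-seq median relative to all genes ran from -0.069 (without Igf2bp3+/- RNC-seq replicate 1) to 0.113, the TE median from -0.051 to 0.107 and, relative to all genes, from -0.137 to 0.011. The number of genes called higher in Igf2bp3-/- loading was 2 after centring on the median, with array weights or with 1 fit over all 12 libraries, and ran from 0 to 2 with 1 library left out, those called lower from 9 to 16. Cfap36 loading in Igf2bp3-/- was -0.046 under quantile normalization. Without both Igf2bp3-/- libraries numbered 2, an alternative chosen after seeing the data, the TE difference of Cfap65 was 0.14. RNA-seq and RNC-seq libraries of 1 number deviated together with r over 0.1 in 4 of 6 pairs, the highest at 0.205. Of 12 libraries, 8 correlated best with their own number, at most a hint of pairing. The RNC-seq replicates 2 of the 2 genotypes, which are different animals, also deviated together (r = 0.241). The other numbers across genotypes gave r from -0.083 to 0.048. Pairing was not settled, since both assays came from the extracts of the same animals but the sources do not tie the numbers to extracts. With the replicate block, 0 axonemal genes were called in any genotype comparison, the 23 called in Igf2bp3+/- loading and 14 of the 15 in Igf2bp3-/- loading were called again, the TE difference of Cfap65 was 0.53 (adjusted p = 0.695 by limma), and the whole-table RNA-seq calls went from 40 higher and 12 lower to 4 and 0. Whole-table calls ranged, under the alternatives, from 4 to 594 higher and 0 to 515 lower in RNA-seq. They ranged from 0 to 901 and 0 to 201 in RNC-seq, and from 0 to 955 and 0 to 252 in TE. Each of these upper ends came from the laxer call rule, an unadjusted p under 0.05 with a 1.5-fold change. With the adjusted limit kept and 1 library left out, calls were 5 to 24 higher and 2 to 9 lower in RNA-seq. They were 0 to 7 and 0 to 5 in RNC-seq, and 1 to 2 and 0 in TE. In Igf2bp3-/- loading, calls ranged from 470 to 3117 and 637 to 3189, against 1873 and 2017. Apart from that call rule, the causes of these shifts were not tested.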
